A study of Homo sapiens with 36 samples.

Results

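The genes described here encode 7 subunits of RNA polymerase II (RNAPII): POLR2A, POLR2B, POLR2C, POLR2D, POLR2E, POLR2G and POLR2H. A PAR-CLIP cluster was counted for a gene when its midpoint lay on the gene's strand and within its GENCODE 44 body on GRCh38, and the 18 cluster lists held 231 such clusters of 278185 in all. The genes are 7 of 20046 protein-coding genes, of which 9830 held a cluster in any list. PAR-CLIP crosslinks 4-thiouridine (4SU) in RNA to the protein that touches it, and a cluster is a short stretch of RNA where reads with T-to-C changes pile up. The RNA came from Flp-In T-REx HEK293 cells, a human embryonic kidney line, that expressed FLAG-SCAF4 or FLAG-SCAF8 from a doxycycline-inducible transgene, or from the parental cells with no FLAG-tagged protein. Each line gave a FLAG immunoprecipitation (IP) and an input taken from the same extract before the IP. Extracts were made as a soluble and a chromatin fraction, and each list joins both. The groups were therefore SCAF4 IP, SCAF8 IP, control IP (parental cells), SCAF4 input, SCAF8 input and parental input, with 3 replicate lists each. All cells received 100 μM 4SU overnight and a 2 h pulse of 500 μM 4SU before 365 nm light at 2000 J/m2. The labels give 100 ng/mL doxycycline for both FLAG lines and name none for the parental line. The study's methods, in contrast, list the parental cells among those given doxycycline. If the labels are followed, the tag and the inducer cannot be told apart in comparisons with parental cells. The tagged SCAF proteins were expressed beside the cells' own copies.

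RNAPII transcribes all messenger RNA precursors. POLR2A is its largest subunit and carries the C-terminal domain (CTD), a tail of heptad repeats whose phosphorylation recruits factors for capping, splicing and 3′ end formation. POLR2B, the other large subunit, forms the active site together with POLR2A. POLR2C is part of the assembly platform of the enzyme, POLR2D and POLR2G form the stalk next to the RNA exit channel, and POLR2E and POLR2H are shared by all 3 nuclear RNA polymerases. SCAF4 and SCAF8 are RNA-binding proteins that bind the phosphorylated CTD. The comparison asked where on the transcripts of these subunits SCAF4 and SCAF8 crosslinked, and whether the input or the control IP crosslinked at the same places.

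The lists differed in length, from 18287 to 54404 clusters in the SCAF4 and SCAF8 IP, from 1621 to 9638 in the control IP and from 4567 to 12493 in the inputs. Read depth is unknown because the lists hold no reads. Levels are therefore given as clusters per 10000 clusters of the same list, and an absent cluster in a short list is weak evidence that no crosslink was there. Clusters of the tagged gene were more frequent in the matching inputs, with 16 to 17 SCAF4 clusters in the SCAF4 inputs against 1 to 7 in the other inputs, and 18 to 20 SCAF8 clusters in the SCAF8 inputs against 1 to 10.

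The 231 clusters merged into 63 sites, each a run of clusters that overlap by at least 1 nt. The clusters of a site need not all share a position. POLR2A had 23 sites, POLR2B 14, POLR2C, POLR2D and POLR2E 7 each, POLR2H 3 and POLR2G 2. SCAF4 or SCAF8 IP lists held 61 of the 63 sites, input lists 21 and control IP lists 5. Both SCAF4 and SCAF8 IP marked 33 sites, SCAF4 IP without SCAF8 IP 18, and SCAF8 IP without SCAF4 IP 10. Sites found in SCAF4 or SCAF8 IP alone numbered 42, of which 22 recurred in at least 2 of the 6 lists. The 3 longest IP lists (SCAF4 IP replicates 2 and 3 and SCAF8 IP replicate 3, with 33962 to 54404 clusters) held 119 of the 171 SCAF IP clusters in these genes. All 20 single-list sites found in SCAF IP alone came from those 3 lists, and so did 9 of the 22 recurrent ones. The part of list length in these sites was not tested.

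The following sites show the kinds of position that were crosslinked, 5′ to 3′ on the transcribed strand of GRCh38, with exon bases of the canonical transcript in capitals and intron bases in lower case. POLR2A exon 13 (chr17:7501239-7501409, + strand) and exon 24 (chr17:7511400-7511646, + strand) are shown because they were marked in SCAF IP, control IP and inputs alike.
POLR2A exon 13: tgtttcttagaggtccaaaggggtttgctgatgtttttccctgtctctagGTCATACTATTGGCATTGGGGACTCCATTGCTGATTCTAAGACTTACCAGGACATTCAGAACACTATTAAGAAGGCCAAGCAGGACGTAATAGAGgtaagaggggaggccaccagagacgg
POLR2A exon 24: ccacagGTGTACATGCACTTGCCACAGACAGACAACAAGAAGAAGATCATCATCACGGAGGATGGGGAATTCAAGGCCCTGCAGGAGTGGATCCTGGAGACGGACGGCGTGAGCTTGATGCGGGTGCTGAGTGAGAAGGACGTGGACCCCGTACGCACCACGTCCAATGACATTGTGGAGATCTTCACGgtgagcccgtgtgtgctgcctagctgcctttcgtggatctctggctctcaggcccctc
POLR2A exon 17 (chr17:7503113-7503289, + strand), POLR2B exon 13 (chr4:57010991-57011124, + strand) and POLR2C exon 7 (chr16:57469970-57470132, + strand) are shown because they recurred in SCAF IP and were rare or absent elsewhere.
POLR2A exon 17: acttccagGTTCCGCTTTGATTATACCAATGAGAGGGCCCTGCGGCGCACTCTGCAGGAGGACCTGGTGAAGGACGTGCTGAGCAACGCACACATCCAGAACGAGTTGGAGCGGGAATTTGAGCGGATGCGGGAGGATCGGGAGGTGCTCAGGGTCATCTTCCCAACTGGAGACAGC
POLR2B exon 13: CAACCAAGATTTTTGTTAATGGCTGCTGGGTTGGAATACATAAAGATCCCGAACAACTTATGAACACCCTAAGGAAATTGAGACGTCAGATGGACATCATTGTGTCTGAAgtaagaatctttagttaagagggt
POLR2C exon 7: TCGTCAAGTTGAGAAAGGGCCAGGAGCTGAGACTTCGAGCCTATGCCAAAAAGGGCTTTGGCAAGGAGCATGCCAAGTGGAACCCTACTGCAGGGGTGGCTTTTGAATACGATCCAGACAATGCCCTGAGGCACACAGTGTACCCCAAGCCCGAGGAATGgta
All exon bases shown are coding sequence. The site in exon 13 took in the whole 95 nt exon with 76 nt of the introns on both sides, and the site in exon 24 the whole 183 nt exon with 64 intron nt. Uridines (T in the genome) made up 26.3% of the exon 13 site, 19.8% of the exon 24 site, 18.6% of the exon 17 site, 27.6% of the POLR2B site and 17.8% of the POLR2C site.

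POLR2A (ENSG00000181222.19, chr17:7484366-7514616, + strand) held 114 of the 231 clusters, and 400 protein-coding genes held more. SCAF4 IP lists held 9, 20 and 19 POLR2A clusters and SCAF8 IP lists 9, 5 and 16. Control IP lists held 2, 3 and 2, SCAF4 inputs 5, 5 and 5, SCAF8 inputs 1, 3 and 4, and parental inputs 4, 1 and 1. POLR2A was the only one of the 7 genes with a cluster in all 18 lists. Per 10000 clusters these counts came to 4.67 ± 0.961 (SD, n = 3) in SCAF4 IP and 3.39 ± 0.583 in SCAF8 IP. They came to 9.13 ± 6.11 in control IP, 8.16 ± 3.39 in SCAF4 input, 2.81 ± 1.68 in SCAF8 input and 2.45 ± 0.658 in parental input. Control IP replicates 2 and 3 and SCAF4 input replicates 2 and 3 were the highest lists, all with 2 to 5 clusters in lists of at most 5114. SCAF IP and own inputs overlapped, with a log2 difference of -0.15 (exact permutation p = 0.781, adjusted p = 0.864), and so did SCAF4 IP and SCAF8 IP.

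**Figure D1:**
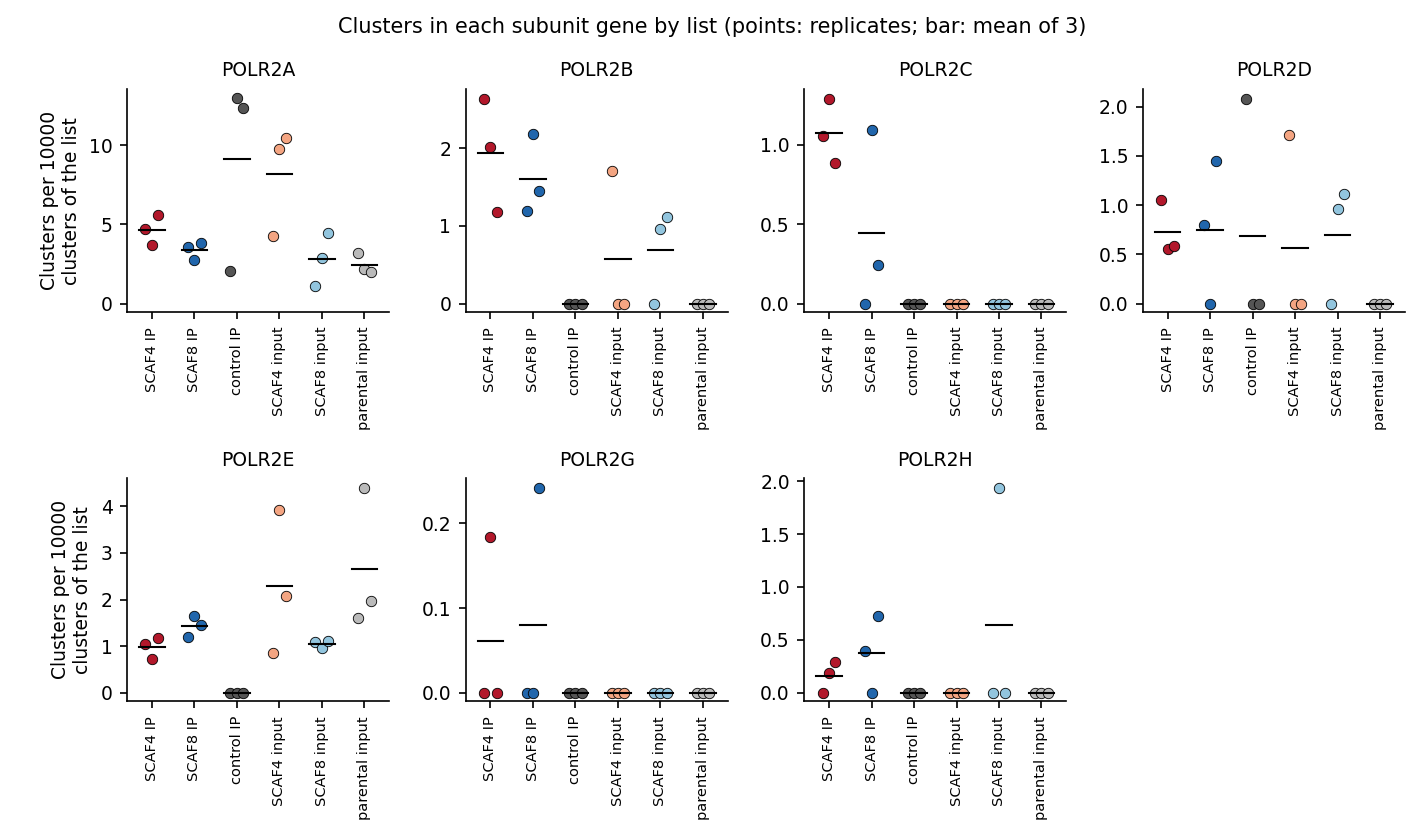
Clusters per 10000 clusters of the list (vertical axis, linear, own scale for each gene) for 7 RNAPII subunit genes in 6 groups, with 1 point per replicate list and a bar at the mean of 3. POLR2A was found in all 18 lists, POLR2B, POLR2C and POLR2E in no control IP list, and POLR2C in no list outside SCAF4 and SCAF8 IP.

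POLR2A clusters lay on exons. Of 114 clusters, 104 had their midpoint in an exon of the canonical transcript, although exons make up 20.9% of the gene body. In SCAF4 and SCAF8 IP the exons held 1.85 clusters per kb and list, and the rest of the gene body 0.0557. In the inputs the values were 0.475 and 0.00928. These densities are not scaled to list length, so they compare exons with the rest within a group and not SCAF IP with inputs. The first intron, 11083 nt long, held 1 cluster, in parental input replicate 2. The other 9 clusters outside exons were 7 that lay past the canonical transcript's end, in the 437 nt that other isoforms transcribe, and 2 whose midpoint fell beside exons 6 and 11. With exons of any isoform, 111 of 114 clusters were exonic. The exonic share per list was 90.8% ± 4.59 (SD, n = 6) in SCAF4 and SCAF8 IP and 96.7% ± 8.16 (n = 6) in their inputs. This difference of -5.87 percentage points did not pass the exact permutation test over lists (two-sided p = 0.0801, adjusted p = 0.414 over 2985 genes). With exons of the longest isoform in place of the canonical ones it was -1.71 points (adjusted exact permutation p = 0.891). All 7 control IP clusters were exonic.

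**Figure D2:**
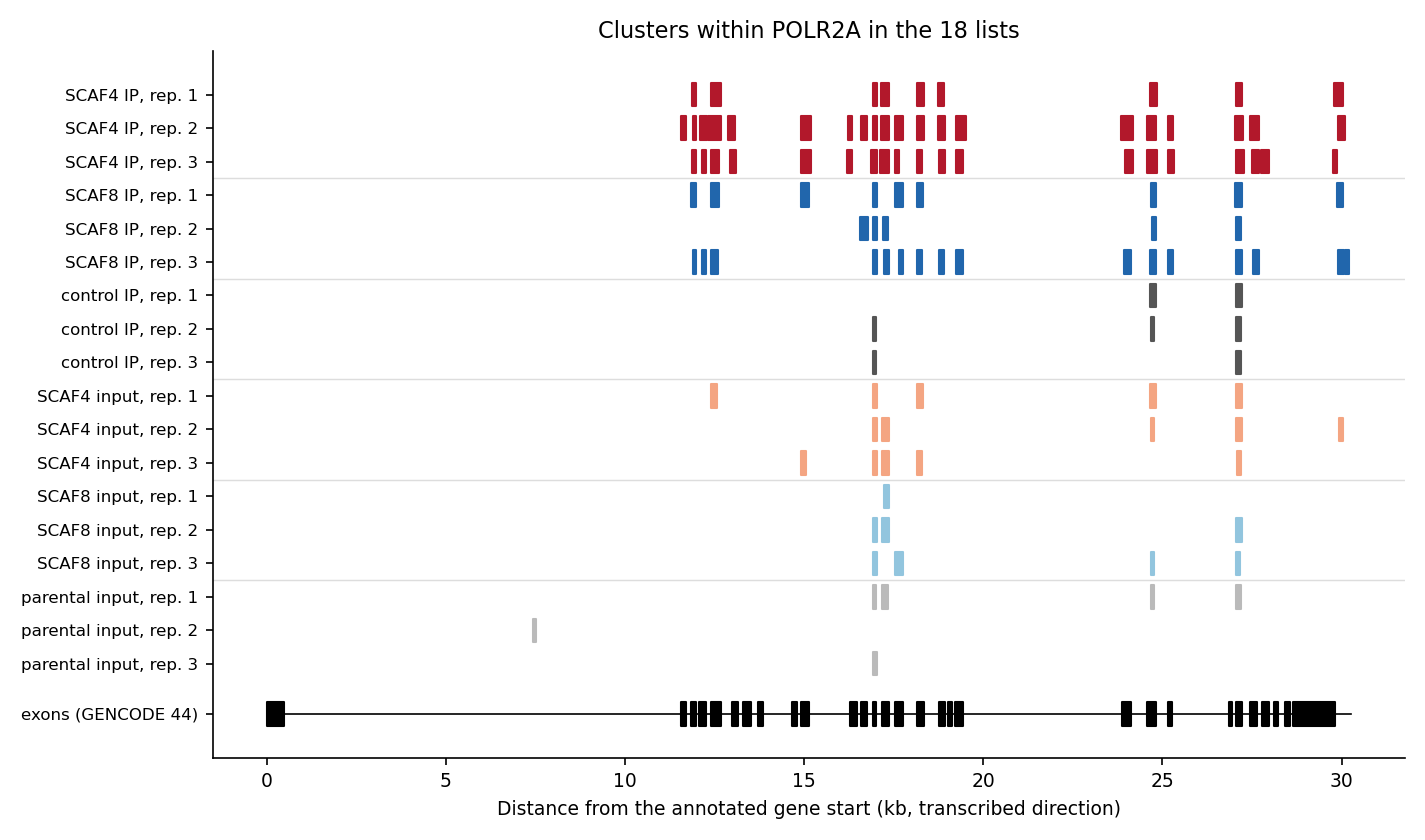
POLR2A clusters (colored bars) in each of the 18 lists against the distance from the annotated gene start in kb, with exons of the canonical transcript as black boxes. Clusters stacked on exons from 11 kb onward, and the 11083 nt first intron held 1. Annotated exon 29 held none, whereas clusters touched exon 30, placed 2 nt after it, and lay past the canonical end.

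SCAF4 and SCAF8 IP clusters touched 21 of the 30 POLR2A exons, input clusters 8 and control IP clusters 3. The exons of the control IP were exons 13, 21 and 24. Exon 13 was marked in all 6 SCAF IP lists, 2 of 3 control IP lists and 7 of 9 input lists. Exon 24 was marked in all 6 SCAF IP lists, all 3 control IP lists and 6 of 9 input lists. Exon 21 was marked in 6, 2 and 4 of these lists. Exon 14 followed with 5 SCAF IP lists and 5 input lists but no control IP list. These 4 exons held 22 of the 29 input clusters, all 7 control IP clusters and 23 of the 78 SCAF IP clusters of POLR2A.

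Other POLR2A exons were marked in SCAF IP with few or no clusters elsewhere. Exon 17 was marked in all 3 SCAF4 IP lists and 1 SCAF8 IP list, and in no other. Exons 4, 19, 20, 22 and 25 were marked in 2 SCAF4 IP lists and 1 SCAF8 IP list each, in all cases SCAF4 IP replicates 2 and 3 and SCAF8 IP replicate 3, the 3 longest. Exon 5 was marked in 5 SCAF IP lists and 1 input, exon 16 in 5 and 2, and exon 15 in 4 and 1. All 3 SCAF4 IP lists shared 8 exons, and all 3 SCAF8 IP lists shared 3, which were exons 13, 21 and 24 again. At the 3′ end, a site from chr17:7514127 to 7514449 held 5 SCAF IP lists and 1 input, and ran from the last codons into sequence past the canonical end. Only the clusters of SCAF4 IP replicates 1 and 3 touched the last codons. Those of the other lists lay wholly past the canonical end.

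**Figure D3:**
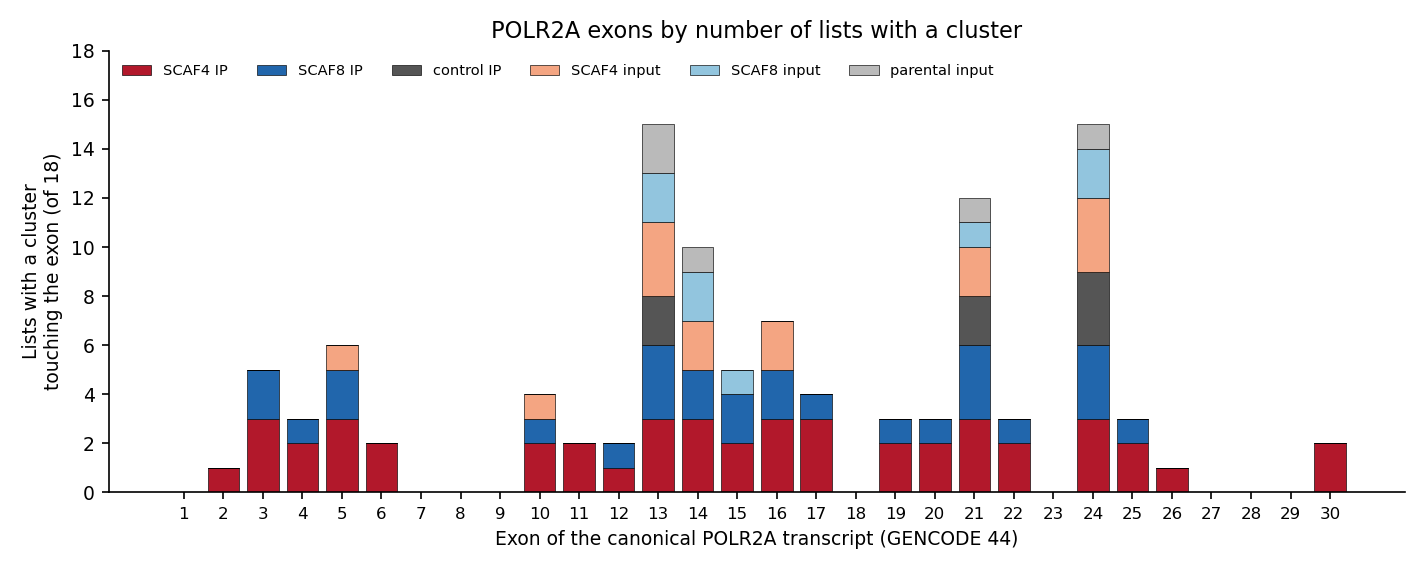
Number of lists, of 18, with a cluster touching each exon of the canonical POLR2A transcript, stacked by group. Exons 13 and 24 were touched in 15 lists and exon 21 in 12, whereas 9 exons, among them exons 1 and 29, were touched in none.

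Exon 29 of POLR2A, which encodes heptad repeats of the CTD, held no cluster in any of the 18 lists. At 752 nt it was the longest exon as annotated. A translation of the annotated coding sequence placed all 21 exact consensus heptads in it. The other 8 exons without a cluster were exons 1, 7, 8, 9, 18, 23, 27 and 28. Exon 29 contained 19.7% uridine, against a median of 20.6% (range 14.3 to 29.9%) over the 21 exons with a cluster. Within it, 9.96% of 20-nt words occurred more than once, against none in exons 1 to 28. In exon 30, which clusters touched in 2 lists, the share was 7.77%, and the part of such repeats was not tested. The annotation places exon 30 only 2 nt after exon 29, and whether the transcript separates them was not tested. If they are a single exon, that exon was touched in 2 lists, both SCAF4 IP. The absence therefore holds for chr17:7513021-7513772 and not for the 3′ end of the gene. Clusters past that stretch lay at chr17:7514127-7514449 in 5 SCAF IP lists and 1 input, and at chr17:7514456-7514578 in SCAF8 IP replicate 3.

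POLR2B (ENSG00000047315.17, chr4:56977722-57031158, + strand) is the longest of the 7 genes and held 37 clusters. SCAF4 IP lists held 5, 11 and 4 and SCAF8 IP lists 3, 4 and 6. Control IP and parental input lists held none, SCAF4 inputs 2, 0 and 0, and SCAF8 inputs 0, 1 and 1. All 6 SCAF IP lists thus held POLR2B, and 3 of 6 matched inputs did. The level was 1.78 ± 0.595 per 10000 (SD, n = 6) in SCAF IP and 0.630 ± 0.734 (n = 6) in the inputs, a difference of 1.25 on the log2(value + 0.5) scale. Its exact permutation p was 0.0173, and the adjusted p of 0.0619 over 5314 genes missed the threshold. Over the alternatives the difference ran from 0.55 (pseudocount 2) to 2.32 (covered length), both on another scale than the main value. On the main scale, leaving out 1 replicate gave 1.07 to 1.37, and none of these passed the adjusted threshold. With the better-scored clusters alone the difference was 0.79 (adjusted exact permutation p = 0.423).

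POLR2B clusters spread over 14 sites with 27 of 33 SCAF IP clusters exonic. The site in exons 19 and 20 (chr4:57023345-57023737) was the most recurrent, with all 6 SCAF IP lists and SCAF8 input replicate 2. The site in exon 10 (chr4:57006833-57007076) was present in all 3 SCAF4 IP lists and in no other list. The site in exon 16 (chr4:57017663-57017759) was present in SCAF8 IP replicates 2 and 3 alone. Exon 13, shown above, was marked in 1 SCAF4 IP list, 2 SCAF8 IP lists and 1 SCAF4 input. An intronic site between exons 10 and 11 (chr4:57008620-57008909) held 3 SCAF IP lists and SCAF4 input replicate 1. Exonic density in SCAF IP was 1.19 clusters per kb and list, and density in the rest of the gene 0.0201. The exonic share of 78.4% ± 24.5 (SD, n = 6) in SCAF IP and 50.0% ± 50.0 (n = 3 lists with a cluster) in input overlapped (exact permutation p = 0.274, adjusted p = 0.738).

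POLR2C (ENSG00000102978.13, chr16:57462660-57472009, + strand) was marked in SCAF IP lists alone. SCAF4 IP lists held 2, 7 and 3 clusters and SCAF8 IP lists 0, 2 and 1, and the 12 other lists held none. The mean in SCAF IP was 0.760 ± 0.517 per 10000 (SD, n = 6). That is 1.27-fold the 0.598 per 10000 that 3 clusters over the 6 own input lists would give. This ratio leaves out the spread of the SCAF IP lists and is no lower bound. The exact permutation p was 0.0152 and the adjusted p of 0.0554 missed the threshold. POLR2C entered the test only through its SCAF IP clusters, so these values give no independent support for a higher level there. Exon 9, which holds the end of the coding sequence and the 3′ UTR, was marked at chr16:57470925-57471278 in 5 of 6 SCAF IP lists. No position was covered in all 5, since SCAF4 IP replicate 1 began at 57471145 and SCAF8 IP replicate 3 ended at 57471080. Exon 7, shown above, was marked in all 3 SCAF4 IP lists and no SCAF8 IP list. A site over exon 1 (chr16:57462645-57462852), found in 3 SCAF IP lists, also lies in a long noncoding RNA gene on the same strand (ENSG00000260345), so its transcript is uncertain. Of 15 clusters, 14 were exonic.

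POLR2D (ENSG00000144231.11, chr2:127843553-127858155, - strand) held 21 clusters, all exonic, and all but 2 in the 3′ UTR of its long last exon. SCAF4 IP lists held 2, 3 and 2 and SCAF8 IP lists 2, 0 and 6. Control IP held 2, 0 and 0, SCAF4 input 2, 0 and 0, SCAF8 input 0, 1 and 1, and parental input none. The groups overlapped, with 0.739 ± 0.491 per 10000 (SD, n = 6) in SCAF IP against 0.630 ± 0.734 (n = 6) in the inputs (log2 difference 0.30, exact permutation p = 0.541, adjusted p = 0.675). The most recurrent site (chr2:127847064-127847522) held 5 SCAF IP lists, control IP replicate 1 and 2 own inputs. The RPS26P19 pseudogene lies in the same exon, and 4 of the 21 clusters, all from SCAF IP, overlapped it. The placement of reads there is uncertain, and the other 17 clusters lay elsewhere in the gene.

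POLR2E (ENSG00000099817.12, chr19:1086574-1095380, - strand) held 34 clusters and had the highest number of clusters per kb of gene, 3.86 against 3.77 for POLR2A. SCAF4 IP lists held 2, 4 and 4, SCAF8 IP lists 3, 3 and 6, SCAF4 inputs 1, 2 and 1, SCAF8 inputs 1, 1 and 1, and parental inputs 2, 2 and 1. Control IP lists held none. POLR2E was thus found in every IP and input list except the 3 of the control IP. The level was 1.21 ± 0.314 per 10000 (SD, n = 6) in SCAF IP and 1.67 ± 1.18 (n = 6) in the own inputs, and the groups overlapped (log2 difference -0.23, exact permutation p = 0.515, adjusted p = 0.651). In SCAF4 IP the 3 values (0.989 ± 0.228) lay below the 3 of SCAF8 IP (1.43 ± 0.225), with a log2 difference of -0.38, which became -0.17 without replicate 2. An exact permutation test of 3 against 3 lists cannot give less than p = 0.1, the value found, and 17.4% of all genes tested had groups that did not overlap. POLR2E was the only tested member of which this was so.

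Most POLR2E clusters lay in the 3′ UTR of the last exon, and both sites with input clusters were also marked in SCAF IP. The site at chr19:1086768-1086994, in the last part of the transcript, was found in all 6 SCAF IP and all 9 input lists. The site at chr19:1088174-1088715, more than 1 kb upstream in the same exon, was found in all 6 SCAF IP lists and in none of the other 12. No position was covered in all 6. SCAF8 IP replicate 1 marked 1088185-1088362, whereas SCAF4 IP replicates 2 and 3 and SCAF8 IP replicate 2 marked 1088449 to 1088715. Between them, chr19:1087812-1088110 held 4 SCAF IP and 3 input lists. All 12 input clusters were exonic. Against the 6 own inputs, at 100% each, the exonic share of 90.3% ± 15.3 (SD, n = 6) in SCAF IP did not pass the test (exact permutation p = 0.455, adjusted p = 0.879). An intron-exon site at exon 7 (chr19:1089335-1089545) was found in SCAF4 IP replicate 2 and SCAF8 IP replicate 3.

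**Figure D4:**
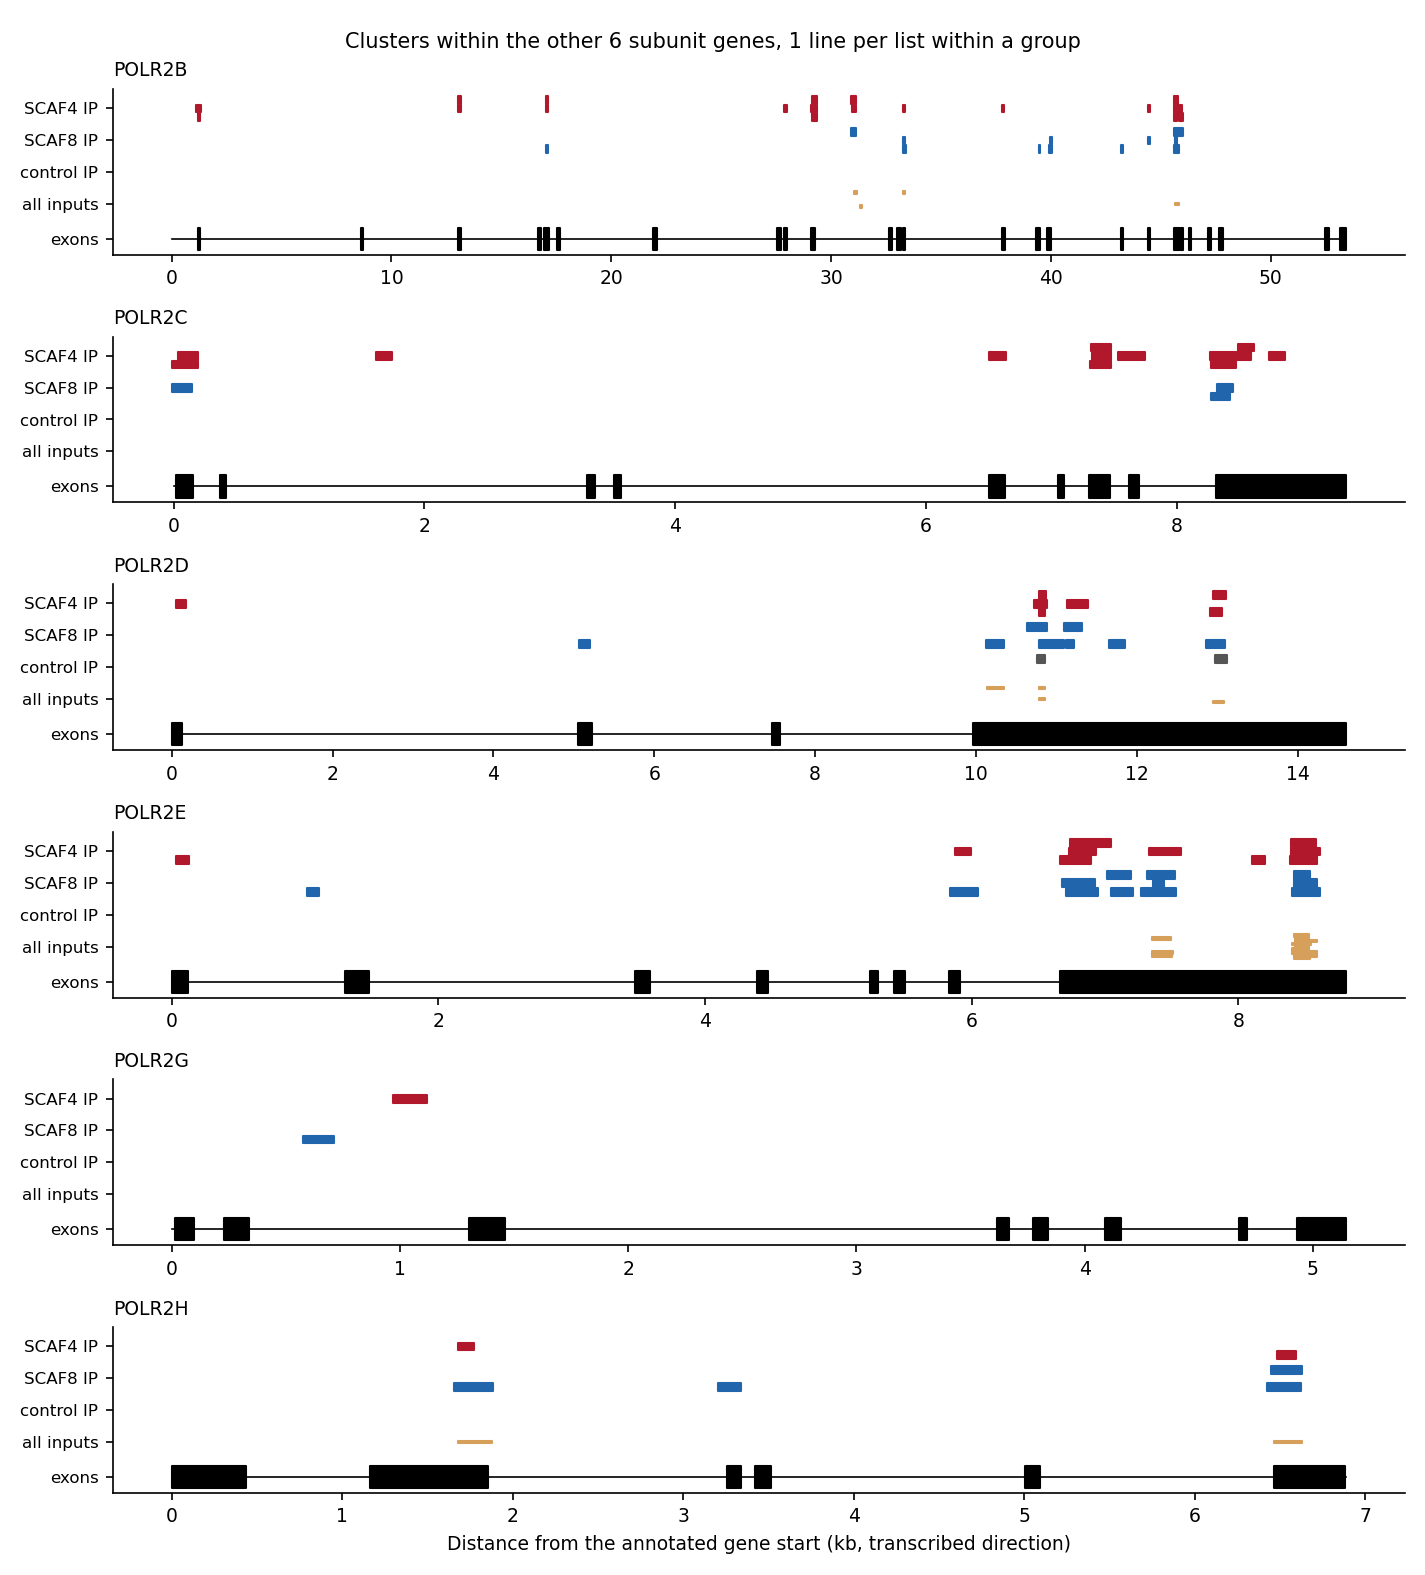
Clusters in 6 RNAPII subunit genes against the distance from the annotated gene start in kb, with 1 line per list within SCAF4 IP, SCAF8 IP, control IP and the 9 inputs, and exons as black boxes. POLR2D and POLR2E clusters gathered in the long last exon, the 3′ end site of POLR2E was shared by all inputs, and POLR2G had clusters in an intron only.

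The subunits with the fewest clusters were POLR2H and POLR2G, which did not pass the filter of at least 10 clusters over the 18 lists and were not tested. POLR2H (ENSG00000163882.10, chr3:184361710-184368596, + strand) held 8 clusters, all exonic. SCAF4 IP replicates 2 and 3 held 1 each, SCAF8 IP replicates 1 and 3 held 1 and 3, and SCAF8 input replicate 2 held 2. Its site in the last exon (chr3:184368136-184368335) recurred in 3 SCAF IP lists and that input. POLR2G (ENSG00000168002.12, chr11:62761565-62766710, + strand) held 2 clusters, 1 in SCAF4 IP replicate 2 and 1 in SCAF8 IP replicate 3. Both lay in intron 2 at different positions and touched no exon, and POLR2G was the only one of the 7 genes with no exonic cluster.

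Over the 5 members tested, none passed an adjusted p of 0.05 between SCAF IP and own input, where 14.9% of all 5314 genes did (485 higher and 307 lower in SCAF IP). At an unadjusted p under 0.05, POLR2B and POLR2C passed, 2 of 5, against 36.7% of all genes, so the members' share was near the background. limma on the same values called POLR2B (adjusted p = 0.0303) and POLR2C (adjusted p = 0.0129), 2 of 5 members against 31% of all genes. Both genes held fewer than 10 clusters outside SCAF IP, so they passed the filter only through SCAF IP. Input and IP of a line came from the same extract, and limma with the extract as a block called the same 2 members (adjusted p = 0.0161 and 0.0172) and 33.9% of all genes. The exact test with labels permuted within a replicate number called no gene. Its smallest p was 0.00926, reached by 793 genes, and at least 985 genes must pass together for any to pass. Of the 792 genes called without a block, limma with the extract block called 744. The median log2 difference was 0.30 over the 5 members and 0.53 over all genes tested, so POLR2A, POLR2D and POLR2E lay below the median gene and POLR2B and POLR2C above it. The 6 lists on each side allow no p under 0.00216, and at least 231 genes must pass together for any to pass after adjustment.

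Against the control IP, POLR2B and POLR2E levels did not overlap, since the control IP held no cluster of either (log2 differences 2.15 and 1.75, each with an exact permutation p of 0.0119, the smallest possible, and an adjusted p of 0.0527). Groups did not overlap for 23.7% of all genes. No gene of 5314 passed the adjusted threshold in this comparison, while 35.6% had an unadjusted p under 0.05 and limma called 1873. These 2 differences are fitted values and no bounds. The 3 control IP lists together held 13573 clusters, and 3 clusters over them would amount to 2.21 per 10000, which is above the SCAF IP level of both genes. A lower level of either gene in the control IP was therefore not detectable at this list length. With genes of at least 30 clusters alone, POLR2B and POLR2E passed, as did 25.4% of the 2411 genes then tested. Both genes reached 30 clusters only with their SCAF IP clusters, so this pass is no independent support. With limma both passed, as did 35.2% of all genes. POLR2A went the other way, with -0.78 (exact permutation p = 0.179, adjusted p = 0.276). Between control IP and parental input, POLR2E did not overlap (0 against 2.65 ± 1.51 per 10000, n = 3 each, exact permutation p = 0.1, the smallest possible), and neither did 4.74% of all genes. The parental input mean of 2.65 lay above the 2.21 that 3 control IP clusters would give. Of the 3 parental input lists, at 1.60, 4.38 and 1.97 per 10000, only replicate 2 did. A lower level in the control IP was therefore not established at this list length.

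A consensus rule kept regions found in at least 2 of 3 replicates (or 2 of the 6 SCAF IP lists pooled), not overlapping more than 1 input list, in genes with fewer than 1 merged input region per 10 kb, and not overlapping a control IP cluster. Pooled, the 7 genes had 61 merged regions, of which 40 were in at least 2 lists, 32 passed the input overlap, and 12 were left after the removal of genes by input density. Those 12 were 9 in POLR2B and 3 in POLR2C. POLR2A, POLR2D, POLR2E and POLR2H exceeded the density limit, with 2.92, 1.61, 1.56 and 1.84 input regions per 10 kb including 2000 nt on both sides. That is 4 of 7 members, against 23.4% of all genes with a cluster. Without this step 31 pooled regions were left, 14 of them in POLR2A, among them exon 17. SCAF4 IP alone gave 10 consensus regions and SCAF8 IP alone 4. The consensus sets of both proteins shared the region of POLR2B exon 19 and that of POLR2C exon 9.

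In all 6 groups most clusters of the 7 genes lay on exons. The exonic share was 88.3% of 171 clusters in SCAF4 and SCAF8 IP (exact 95% interval 82.5 to 92.7%), 92.2% of 51 in the inputs (81.1 to 97.8%) and 9 of 9 in the control IP (66.4 to 100%). These intervals cover counting error only and treat clusters as independent. The 171 SCAF IP clusters fall on 61 sites, many of them found in several lists, so the intervals are too narrow. Exons make up 17.4% of the 7 gene bodies, and over all protein-coding genes the share was 63.1% in SCAF IP and 57.5% in the inputs. The share was 88.0% in SCAF4 IP and 88.7% in SCAF8 IP. No member passed the test of exon share at an unadjusted p of 0.05, where 14.1% of 2985 genes did. A cluster in each of the 6 SCAF IP lists was found for POLR2A, POLR2B and POLR2E, against 37.3% of all genes with a cluster.

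More SCAF IP clusters than input clusters crossed an edge of an exon. In the 7 genes, 85 of 171 SCAF IP clusters (49.7%), 12 of 51 input clusters (23.5%) and 0 of 9 control IP clusters crossed one. In POLR2A the shares were 51 of 78, 10 of 29 and 0 of 7. Over all protein-coding genes they were 31.5% in SCAF IP and 14.6% in inputs. Clusters were also longer in SCAF IP, with a median of 164 nt in the 7 genes against 133 nt in inputs and 135 nt in control IP. When each cluster was reduced to its central 71 nt, the length of the shortest, 16 of 171 SCAF IP clusters (9.36%) and 0 of 51 input clusters crossed an edge, against 10.7% and 3.94% over all genes. With clusters as deposited, 130 of 2985 genes passed the adjusted threshold. At the central 71 nt none did (277 of 2985 had an unadjusted exact permutation p under 0.05), and neither POLR2A (p = 0.455) nor POLR2B (p = 0.0833) passed. The part of cluster length in the difference was not tested further. Per list, POLR2A went from 60.9% ± 17.1 (SD, n = 6) in SCAF IP to 48.6% ± 32.5 (n = 6) in the own inputs, which overlapped (exact permutation p = 0.424, adjusted p = 0.735). POLR2B went from 49.8% ± 22.1 (n = 6) to 0 (n = 3 lists with a cluster), with an exact permutation p of 0.0238 and an adjusted p of 0.133, and 24.2% of 2985 genes had an unadjusted p under 0.05. SCAF IP clusters that held a whole exon numbered 19 of 171, and no input or control IP cluster of the 7 genes held one, against 8.69%, 2.87% and 4.84% of clusters over all genes. SCAF4 IP held 17 of the 19, with 1, 10 and 6 in its replicates, so 7 without replicate 2, its longest list. Over all genes the share was also higher in SCAF4 IP (10.2% of clusters) than in SCAF8 IP (6.77%). The median length of clusters in these genes was 178.5 nt for SCAF4 IP and 153 nt for SCAF8 IP. These counts were not tested.

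The study chose a few short words from these same experiments, so their frequency here is no independent evidence. They were looked for on the transcribed strand only, in the 100 nt around the center of each of the 40 sites found in at least 2 SCAF IP lists. CGG or CGA occurred in 34 of the 40 windows (85.0%), against 67.2% of 41704 such regions of the whole genome and 56.7% of 13456 regions in at least 2 input lists. The word GCAGC, or GCAGG, occurred in 16 of the 40 windows, against 26.4% and 20.4%. The word CCAGC, or CCAGG, occurred in 12 windows (30.0%) against 26.3% and 20.5%. The word CTCC, or CACC, occurred in 23 windows (57.5%) against 49.3% and 41.5%. The windows of these coding genes had a median GC content of 53.0%, against 49.0% and 45.0%, and the part of base composition was not tested. Of these genes' sites, 8 were found in at least 2 input lists, and all 8 are also among the 40. They held the words in 7, 5, 3 and 6 windows (87.5%, 62.5%, 37.5% and 75%). These shares were as high as or higher than those of the 40 sites that include them.

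Of the 5 remaining RNAPII subunit genes (POLR2F, POLR2I, POLR2J, POLR2K and POLR2L), 3 held a cluster, 2 were tested and none was called in either direction between SCAF IP and own input. POLR2J held 36 clusters, 29 of them in SCAF IP, at 1.39 ± 0.478 per 10000 (SD, n = 6) against 1.23 ± 1.03 (n = 6) in the own inputs, but near-identical copies of this gene make the placement of its reads uncertain. POLR2F held 9 in SCAF IP and none in the own inputs, and POLR2L 2. Among 8 RNA polymerase I subunit genes 5 were tested and 1 was called, POLR1B, at 0.598 ± 0.287 per 10000 (n = 6) against no cluster in the own inputs (adjusted exact permutation p = 0.0213). That level equals the 0.598 per 10000 that 3 clusters over the own inputs would give, so no fold can be stated. POLR1A, the largest subunit of that enzyme, held 32 SCAF IP clusters and none in own inputs (adjusted exact permutation p = 0.0554). Its SCAF IP mean was 2.34-fold the same floor, again without the spread of the SCAF IP lists. Among 9 RNA polymerase III subunit genes 6 were tested and 2 rose, POLR3E (log2 difference 1.15) and POLR3D (1.09), each with an adjusted exact permutation p of 0.0436, and none fell. Both had 3 own input clusters, and the ratios of pooled levels were 2.61 (exact 95% counting interval 0.811 to 13.3) for POLR3E and 2.17 (0.663 to 11.2) for POLR3D. With labels permuted within a replicate number, the calls of POLR1B, POLR3D and POLR3E were lost (adjusted exact permutation p = 0.0620 each), and limma with the extract block made them (adjusted p = 0.0159, 0.0256 and 0.0255). POLR3D stood at 1.35 ± 0.391 per 10000 (n = 6) in SCAF IP and at 4.19 ± 2.05 (n = 3) in the control IP. POLR3A, the largest subunit of RNA polymerase III, held 57 SCAF IP clusters against 5 in the own inputs (log2 difference 1.72, adjusted exact permutation p = 0.0554). POLR1A, POLR1B, POLR3A, POLR3D and POLR3E each held fewer than 10 clusters outside SCAF IP, so each passed the filter only through SCAF IP. Of 6 genes for RNAPII assembly factors 3 were tested (GPN2, RPAP3 and RPAP2, with differences of 0.61, -0.01 and -0.15) and none was called.

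The levels of POLR2A over the 18 lists were most like those of RPL35, SDE2 and SRSF9 among 3503 genes (Spearman's rho 0.75, 0.73 and 0.72). POLR2B was most like PRKRIP1 (rho 0.92), POLR2D most like R3HCC1L (0.90) and POLR2E most like RPS15A (0.78). All points share the list and its length, and no p is given.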

How the data were processed

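The series holds 36 PAR-CLIP libraries (IP and input, soluble and chromatin fractions, 3 replicates). The authors trimmed reads with Trim Galore and cutadapt, aligned them to GRCh38 with Bowtie2 2.2.9 (submitters' processing notes), removed duplicates with Picard, joined both fractions and called clusters with PARalyzer, giving 18 lists that precede their input and control filters. Replicate 1 had longer reads. The deposited score, unnamed and from 0.501 to 1, only ranked clusters within a list. Lists hold no reads, so depth is unknown. The study calls the replicates biological, but neither it nor the labels say whether they were separate cultures, so p-values may measure technical spread. The study's methods give another doxycycline dose than the labels.

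Clusters were assigned by midpoint to GENCODE 44 genes on their strand, with exons of the Ensembl canonical transcript. Levels are log2(clusters per 10000 + 0.5) for genes with at least 10 clusters over 18 lists. Groups were compared by two-sided exact permutation of lists, Benjamini-Hochberg adjusted over all genes tested and called at 0.05, with limma 3.58.1 as an alternative (Python 3.11.15, NumPy 2.4.6, R 4.3.3). Exon shares needed 3 lists with a cluster on each side. The consensus rule is adapted from the study's methods: regions were merged before filtering, and input lists and merged input regions were counted where the study counted input clusters. IP and input of a line and number were taken as 1 extract, since inputs were drawn before the IP. Deviations of the 9 such pairs correlated at 0.029 to 0.330 over genes (median 0.125), against a median of -0.105 for different numbers. The steps were tested on simulated lists. Members and gene lists were chosen with earlier results of these data known. Named were all members, up to 3 genes with most SCAF IP clusters of each other list, and the genes most like each member. POLR1B, POLR3D, the exon edge measure and the limma extract block were added after their values were seen. Some items are not reported here.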

Additional observations from a re-analysis of the deposited data

Results flagged for a closer look

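Clusters past the annotated ends of the genes lie outside the counts above and appeared in SCAF4 and SCAF8 IP alone. In the 2000 nt past the end of POLR2E, the 6 SCAF IP lists held 14 clusters and the 12 other lists none. SCAF4 IP lists held 0, 4 and 2 and SCAF8 IP lists 3, 1 and 4, so 5 of 6 lists had one. Their midpoints lay 24 to 1349 nt past the gene's end, and no other gene is annotated on that strand there. The stretch from chr19:1085129 to 1085355 was marked in all 5 of these lists. Among 7719 genes with a cluster and no other gene on the strand in that distance, 608 had any SCAF IP cluster there, 62 (0.803%) had one in at least 5 of the 6 lists, and 18 had at least 14 clusters. Only 3 of those 18 had none in the other 12 lists. Past POLR2B, 2 clusters were found, in SCAF8 IP replicates 1 and 3, at 377 and 381 nt from the gene's end. The antisense strand of the 7 genes held no cluster. These values were not tested, since the IP lists were longer than the others.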

How the results depend on the processing

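The number of members called between SCAF IP and own input stayed 0 under each alternative except limma, which called 2 (and 1645 genes in all, against 792), and limma with the extract as a block, added after seeing the data, which called 2 (and 1799 genes). Genes called came to 0 when only the better-scored clusters of each list (score not below its median) were kept, 0 with the replicate block and 0 without any 1 replicate (0 to 0). Against the control IP, genes of at least 30 clusters alone gave 2 members and 612 genes, and limma 2 members and 1873 genes. POLR2B and POLR2E reached 30 clusters only with their SCAF IP clusters. Differences between SCAF IP and own input changed sign by covered length for POLR2A (0.14) and POLR2E (0.21), with better-scored clusters for POLR2E (0.87), and for POLR2A without replicate 2 (0.12) and replicate 3 (0.03), where leaving out 1 replicate gave -0.60 to 0.12. Against the control IP they changed sign with better-scored clusters for POLR2A (0.021) and without replicate 3 for POLR2D (-0.16 to 1.04 over the replicates left out). None of these passed a test, and the cause was not tested. No exon share was called in any of 24 alternatives. That of POLR2A (-5.87 points) ran from -14.7 to -1.71, with -11.3 without replicate 2, and that of POLR2D went from 0 to -1.68 by covered length. Between SCAF4 and SCAF8 IP, differences moved by over 1 SD in 5 of 58 alternatives, namely POLR2A by covered length (0.77) and with better-scored clusters (1.04), POLR2C with a pseudocount of 0.1 (1.76) and by covered length (1.87), and POLR2E without replicate 2 (-0.17).

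Consensus counts for SCAF4, SCAF8 and pooled (main 10, 4 and 12) were 4 and 1 for SCAF4 and SCAF8 with all 3 replicates, 24, 12 and 31 without removal by input density, 3, 2 and 4 with better-scored clusters, and 2 for SCAF8 with any input overlap removed. Leaving out 1 replicate gave 3 to 7 for SCAF4, 1 to 4 for SCAF8 and 7 to 11 pooled, with the lowest SCAF4 and pooled counts without replicate 2 and the lowest SCAF8 count without replicate 3. With the replicate number as a block, the adjusted exact permutation p was 0.110 for POLR2B and 0.0882 for POLR2C. With it at least 985 genes must pass together for any to pass, so its count of 0 says little of stability. List length limits all absent clusters.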
